A study of Mus musculus with 12 samples.

Results

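Antigen presentation by MHC class I and class II was examined through 10 genes, chosen by symbol from the 50559 genes of a retinal RNA-Seq count table. Of these, 6 serve class I: the heavy chains H2-K1 and H2-D1, their shared light chain B2m, the peptide transporter subunit Tap1, the immunoproteasome subunit Psmb8, and Nlrc5, the transactivator of class I genes. The other 4 serve class II: the invariant chain Cd74, the α chain gene H2-Aa, and the β chain genes H2-Ab1 and H2-Eb1. No rule on measured values was used to choose the symbols, but earlier results of these data were known when they were chosen.

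MHC class I molecules are made by nearly all nucleated cells and display peptides that the proteasome cuts in the cytosol and that TAP carries into the endoplasmic reticulum. MHC class II molecules are made mainly by professional antigen-presenting cells and display peptides from endosomes, and CD74 fills their groove until they are loaded. The healthy retina holds little of either, and in it microglia and perivascular macrophages are the cells known to raise both when they become reactive.

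Wild-type C57BL6/J mice of both sexes were used, and the model was pericyte depletion by antibody. Every mouse received 30 µg of rat antibody s.c. on day 1, either APB5, the clone that blocks mouse PDGFRβ, or an IgG isotype control. The IgG and APB5 groups received no minocycline, whereas the IgG+Mino and APB5+Mino groups received minocycline, a tetracycline that dampens microglial reactivity, i.p. at 45 mg/kg daily from day 5 to day 27. Whole retinas were collected on day 28, with 3 libraries in each of the 4 groups. The antibody was given systemically while retinal vessels grow, and no group carried a transgene. Each group comprised 3 mice. The sources used here do not say how many retinas a library holds.

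Promoter stretches of 5 members are shown first, because they hold motifs of the known MHC regulatory module, which the choice of symbols did not use. RefSeq promoter windows of 300 bases (build GRCm38.p6, from 250 bases before the start site to 50 after) were at hand for 7 of the 9 members looked up, and not for Nlrc5 and H2-Ab1. Cd74 was not looked up. MHC promoters are known to carry an X box, whose X2 motif (TGACG) resembles a cAMP response element, and a Y box, an inverted CCAAT motif (ATTGG). RFX, CREB and NF-Y occupy them and recruit NLRC5 at class I genes or CIITA at class II genes. The stretches below run 5′ to 3′ on the strand of the gene, with TGACG and ATTGG in capitals, and in H2-Eb1 a match to the X1 motif and ATTGG in capitals.
H2-K1: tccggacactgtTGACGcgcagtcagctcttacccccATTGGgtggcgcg
H2-D1: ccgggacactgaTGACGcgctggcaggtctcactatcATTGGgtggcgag
B2m: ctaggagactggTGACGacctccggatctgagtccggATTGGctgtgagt
H2-Aa: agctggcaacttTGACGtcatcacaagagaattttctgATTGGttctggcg
H2-Eb1: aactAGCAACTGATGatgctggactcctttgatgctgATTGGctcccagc
In H2-K1 (chr17:34000351-34000400, minus strand), H2-D1 (chr17:35262981-35263030, plus strand) and B2m (chr2:122147597-122147646, plus strand), 20 bases lay between TGACG and ATTGG. In H2-Aa (chr17:34287859-34287909, minus strand) 21 bases lay between them. H2-Eb1 (chr17:34305771-34305820, plus strand) held no TGACG, and 22 bases lay between its X1 motif and ATTGG. These coordinates are those of GRCm38.p6, not of the build used for counting.

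Searched on both strands, TGACG was present in 20.8% and ATTGG in 37.4% of 32851 promoter windows, so neither is rare alone. ATTGG following TGACG after 19 to 22 bases, on the strand of the gene, was present in 46 windows, or 0.14% of all, and 4 of the 7 members with a window held it. The X1 motif was present in 3.09% of windows. H2-K1 and H2-D1 also held an NF-κB motif present in 0.107% of windows and, as TTTCACTTC, a short interferon response motif present in 7.52%. B2m held GAAACTGAAA, a match to a longer interferon response motif, which was present in 3.44% of windows. The Tap1 window held TGACG and, on the opposite strand, ATTGG, but not the spaced pair. The Psmb8 window held no match to any motif searched. A match describes letters and was not tested as a binding site.

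In GRCm39, the build of the counted reads, 7 of the 10 genes lie in the MHC on chromosome 17. H2-K1 spans chr17:34214987-34219321, Tap1 chr17:34405996-34416199, Psmb8 chr17:34416690-34420428, H2-Ab1 chr17:34476663-34488393, H2-Aa chr17:34493404-34506798, H2-Eb1 chr17:34504236-34535648 and H2-D1 chr17:35481691-35486475. B2m lies at chr2:121977957-121983594, Nlrc5 at chr8:95160984-95253900 and Cd74 at chr18:60936899-60945731. Tap1 overlaps Psmb9 on the opposite strand, H2-Aa overlaps H2-Eb1, and B2m overlaps Patl2, by the GENCODE annotation. Because the sources do not say whether counting used the strand, reads in these overlaps cannot be assigned with certainty. Class I heavy chains are near copies of each other, so the split of short reads between H2-K1, H2-D1 and the H2-Q and H2-T genes is also uncertain.

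At the depth of these libraries, 52.7 to 59.4 M counted reads, 3 reads correspond to 0.0448 to 0.0587 CPM, the count scaled to library size and here by TMM. APB5 replicate 3 stood apart, with a score of 101 on the leading principal component (48.2% of variance) against −42.0 to 17.5 for the other 11 libraries. Its 6 pigment epithelium and choroid genes, listed for tissue next to the retina, summed to 812 CPM against 281 to 519 in the others. Rlbp1 among them also marks Müller glia and made up most of the sum in the others. It was at 362 CPM in this library, within its range elsewhere of 257 to 476. The remaining genes were all highest in this library, with Ttr at 365 CPM against 18.1 to 80.3, Tyr at 30.7 against 0.706 to 3.55 and Mlana at 21.1 against 0.197 to 5.27. Xist, which is transcribed from the inactive X chromosome of females, had 5 to 38 reads in 7 libraries and 47210 to 141589 in the remaining 5, which were all of IgG and replicate 3 of both APB5 and APB5+Mino. All 3 IgG libraries were thus Xist-high and all 3 IgG+Mino libraries Xist-low, and between these groups sex and minocycline cannot be told apart. Rod, cone and other neuronal markers identified the tissue as retina, with 12 genes summing to 43384 to 66078 CPM in 11 libraries but to 12350 CPM in APB5 replicate 3.

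**Figure D1:**
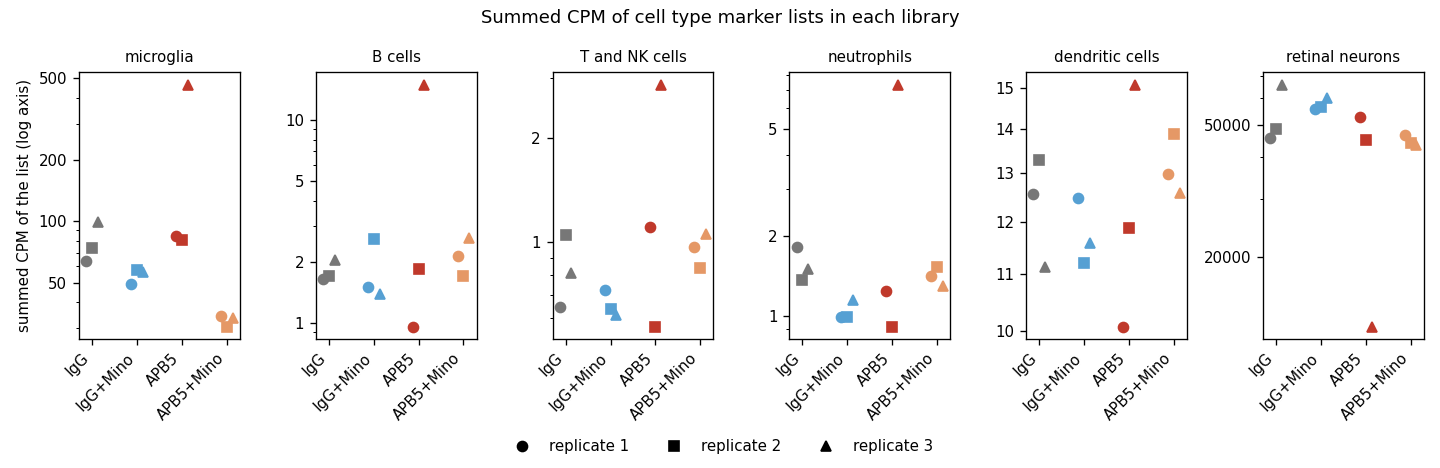
Summed CPM (log axis) of 6 cell type marker lists in each of the 12 libraries, with groups by color and replicates by symbol. APB5 replicate 3 is the highest library in the 5 immune lists, at 466 CPM for microglia and 15.0 CPM for B cells, and the lowest in retinal neurons, at 12350 CPM.

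Immune cells, only some of which carry MHC class II, were followed by their markers, as the plot of marker sums shows. The 14 microglial genes summed to 63.8 to 99.1 CPM in IgG, 49.5 to 57.5 in IgG+Mino, 80.6 to 466 in APB5 and 30.3 to 34.5 in APB5+Mino. The 6 B cell genes summed to 15.0 CPM in APB5 replicate 3 and to 0.958 to 2.61 in the other 11 libraries. In that library none of the 6 was at 0, with Ighm at 6.23, Cd79a at 2.58 and Ms4a1 at 0.598 CPM, while Ms4a1 was at 0 in all the others. The 8 T and NK cell genes reached 2.87 CPM there against 0.566 to 1.1 elsewhere, the 5 neutrophil genes 7.35 against 0.913 to 1.82, and the 9 perivascular and infiltrating macrophage genes 19.7 against 6.96 to 11.7, with Ncr1 at 0 in every group among the T and NK genes and Cd209f among the macrophage genes. A few genes carried the last 2 sums, Csf3r with 4.14 CPM and Ms4a7 with 7.96 CPM. Ly6g was at 0 in that library, and Lyve1, at 6.36 CPM, Cd163 and Ly6c2 lay within their ranges elsewhere. Of the T and NK cell genes, Cd4 stood at 1.33 CPM there, and Cd8a, at 0.777 CPM, lay within its range elsewhere. The 8 dendritic cell genes reached 15.1 CPM there against 10.1 to 13.9, with Xcr1 at 0 in all 3 APB5 libraries. Itgax carried this rise, at 3.23 CPM against 0.0354 to 0.217 elsewhere. Flt3, at 1.45 CPM, was lowest in that library, and Zbtb46, at 8.86 CPM, lay within its range elsewhere. The part of these cells in the values below was not tested, and in whole tissue fewer cells of a type and less RNA per cell cannot be told apart.

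**Figure D2:**
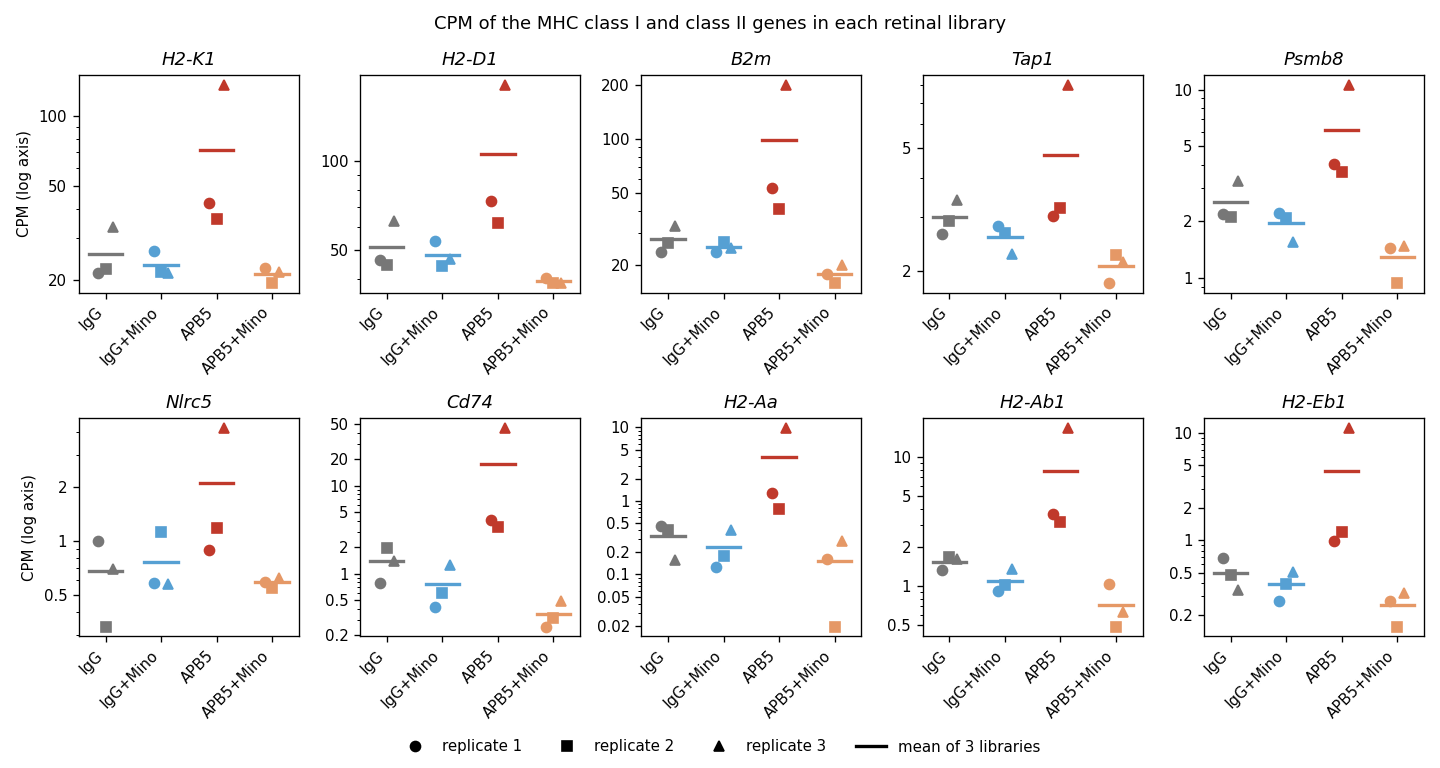
CPM (log axis) of each of the 10 genes in each library, with the mean of the 3 libraries of a group as a bar. APB5 replicate 3 is the highest library for all 10 genes, and all 3 APB5+Mino libraries lie below all 3 APB5 libraries in each panel.

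The classical class I molecule is a heavy chain bound to β2-microglobulin. H2-K1, a heavy chain, was measured at 21.3, 22.2 and 33.4 CPM in IgG, 26.6, 21.5 and 21.5 in IgG+Mino, 42.7, 36.3 and 136 in APB5, and 22.4, 19.4 and 21.6 in APB5+Mino. Its APB5 libraries all exceeded the other 9, and the remaining groups overlapped. H2-D1, the second heavy chain, was measured at 46.4, 44.6 and 62.6 CPM in IgG, 54.0, 44.2 and 46.7 in IgG+Mino, 73.2, 62.0 and 182 in APB5, and 40.4, 38.8 and 38.9 in APB5+Mino. One IgG library, at 62.6 CPM, exceeded the lowest APB5 library, at 62.0 CPM, so those groups overlapped, and APB5+Mino lay below every other group. B2m, the light chain that every class I heavy chain needs, was measured at 23.6, 26.5 and 32.9 CPM in IgG, 23.6, 26.6 and 24.8 in IgG+Mino, 53.2, 40.9 and 201 in APB5, and 17.8, 15.8 and 19.9 in APB5+Mino. APB5 lay above and APB5+Mino below all libraries of both IgG groups, which overlapped each other.

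Tap1 forms one chain of the transporter that brings peptides to class I. It was measured at 2.64, 2.91 and 3.40 CPM in IgG, 2.79, 2.66 and 2.26 in IgG+Mino, 3.0, 3.19 and 8.02 in APB5, and 1.83, 2.25 and 2.14 in APB5+Mino. Its first 2 APB5 libraries lay within the IgG range. Psmb8, which replaces the constitutive β5 subunit in the immunoproteasome, was measured at 2.19, 2.12 and 3.28 CPM in IgG, 2.21, 2.09 and 1.56 in IgG+Mino, 4.05, 3.67 and 10.6 in APB5, and 1.45, 0.939 and 1.49 in APB5+Mino. It was highest in the 3 APB5 libraries and lowest in the 3 APB5+Mino libraries, without overlap with the IgG groups. Nlrc5, a NOD-like receptor that drives class I transcription, was measured at 0.997, 0.333 and 0.691 CPM in IgG, 0.579, 1.12 and 0.575 in IgG+Mino, 0.886, 1.17 and 4.23 in APB5, and 0.591, 0.548 and 0.620 in APB5+Mino. Except for APB5 replicate 3, its libraries rested on 19 to 64 reads, and APB5 overlapped both IgG groups.

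The class II genes were scarce in every library but APB5 replicate 3. Cd74, which chaperones class II dimers, was measured at 0.787, 1.96 and 1.38 CPM in IgG, 0.416, 0.602 and 1.24 in IgG+Mino, 4.10, 3.41 and 45.0 in APB5, and 0.251, 0.313 and 0.489 in APB5+Mino. The 3 APB5 libraries held 227, 187 and 3014 Cd74 reads against 14 to 112 in the other 9. H2-Aa was measured at 0.455, 0.403 and 0.155 CPM in IgG, 0.127, 0.177 and 0.408 in IgG+Mino, 1.28, 0.785 and 9.79 in APB5, and 0.161, 0.0196 and 0.282 in APB5+Mino. Its lowest value is 1 read, so levels outside APB5, at 1 to 26 reads, were near the limit of this depth.

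H2-Ab1, the β chain that pairs with the H2-Aa product, was measured at 1.33, 1.70 and 1.64 CPM in IgG, 0.923, 1.03 and 1.35 in IgG+Mino, 3.65, 3.14 and 16.7 in APB5, and 1.04, 0.489 and 0.639 in APB5+Mino. H2-Eb1, the β chain of the I-E molecule, was measured at 0.682, 0.473 and 0.345 CPM in IgG, 0.272, 0.390 and 0.501 in IgG+Mino, 0.994, 1.19 and 11.2 in APB5, and 0.268, 0.157 and 0.320 in APB5+Mino. For all 4 class II genes the APB5 libraries lay above the other 9 libraries, while IgG, IgG+Mino and APB5+Mino overlapped in part. H2-Ea, the α partner of H2-Eb1, had 0 reads in all 12 libraries, and the C57BL/6 haplotype is known to lack its transcript.

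Compared per length of the canonical transcript, the structural class I genes were the most abundant members. In IgG retinas the mean level of B2m was 25.5 ± 4.39 CPM per kb (SD, n = 3), that of H2-D1 24.2 ± 4.69 and that of H2-K1 15.8 ± 4.16. Psmb8 stood at 1.49 ± 0.384, H2-Ab1 at 1.28 ± 0.164, Cd74 at 0.962 ± 0.410 and Tap1 at 0.961 ± 0.125 CPM per kb, and H2-Aa, H2-Eb1 and Nlrc5 at 0.299 or less. In APB5 retinas B2m averaged 90.7 ± 82.2 CPM per kb and Cd74 12.2 ± 16.7, and the SDs show how far both means rested on replicate 3. By group means, 9 of the 10 genes were ordered APB5, IgG, IgG+Mino, APB5+Mino. Nlrc5 alone had IgG+Mino above IgG. IgG and IgG+Mino overlapped for all 10 genes, and only H2-D1, B2m, Tap1 and Psmb8 separated IgG+Mino from APB5+Mino.

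The first comparison asked how blocking PDGFRβ altered the members. All 10 were higher on average in APB5 than in IgG, with log2 fold changes from 0.69 (Tap1) to 3.70 (Cd74), and the class II genes differed most. The median log2 fold change was 3.37 for the 4 class II genes and 1.40 for the 6 class I genes, against −0.00246 over the 20350 genes tested. Cd74 had a log2 fold change of 3.70 (SE 1.07), H2-Aa of 3.57 (SE 1.04), H2-Eb1 of 3.18 (SE 1.0) and H2-Ab1 of 2.36 (SE 0.67). Among class I genes, B2m had 1.86 (SE 0.59), Nlrc5 1.66 (SE 0.69), H2-K1 1.5 (SE 0.51), Psmb8 1.30 (SE 0.46) and H2-D1 1.06 (SE 0.41). The 3 APB5 libraries exceeded the 3 IgG libraries without overlap for 7 of the 10, all but H2-D1, Tap1 and Nlrc5, whereas 7.79% of all genes tested did so in this direction.

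No member passed the test, in which a called gene had to reach both an adjusted p of 0.05 or less in edgeR's quasi-likelihood test and a change of 1 log2 unit or more. The count was 0 of 10, and 0% of all genes were called higher, with an adjusted p of 0.664 for 9 members and 0.697 for Tap1. With unadjusted p-values and the same limits, 9 of 10 members and 3.24% of all genes were higher. DESeq2 called H2-Aa and H2-Ab1, beside 0.428% of all genes in either direction, and gave no p for Cd74 and H2-Eb1. The H2-Aa call rested on 26, 23 and 9 reads in IgG. With Xist as a covariate over 12 libraries, edgeR called all 10 members higher, and 5.58% of all genes in either direction. Every IgG library was Xist-high, so the slope on Xist rested mainly on replicate 3 of APB5 and APB5+Mino. That adjustment cannot be separated from what set APB5 replicate 3 apart, so no conclusion is drawn from these calls.

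APB5 replicate 3 set the size of these differences. It exceeded the mean of the other APB5 libraries 12-fold for Cd74, 10.2-fold for H2-Eb1, 9.46-fold for H2-Aa and 4.93-fold for H2-Ab1, but 2.59-fold to 4.28-fold for the 6 class I genes. Without it all 10 log2 fold changes stayed above 0, from 0.06 (Tap1) to 1.61 (H2-Aa), with a median of 1.29 for class II and 0.61 for class I genes. The same 7 members, now against 11.9% of all genes, still exceeded IgG without overlap, and none passed the test, beside 0.0868% of all genes called higher. Of the 14 microglial genes, 12 were above 0 with all libraries, with a median of 1.38, and 7 without APB5 replicate 3, with a median of −0.01. That fit compared 2 Xist-low libraries with 3 Xist-high libraries, so the antibody and sex cannot be told apart in it. The only Xist-high APB5 library, replicate 3, exceeded the highest IgG library 2.36-fold (Tap1) to 23-fold (Cd74).

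**Figure D3:**
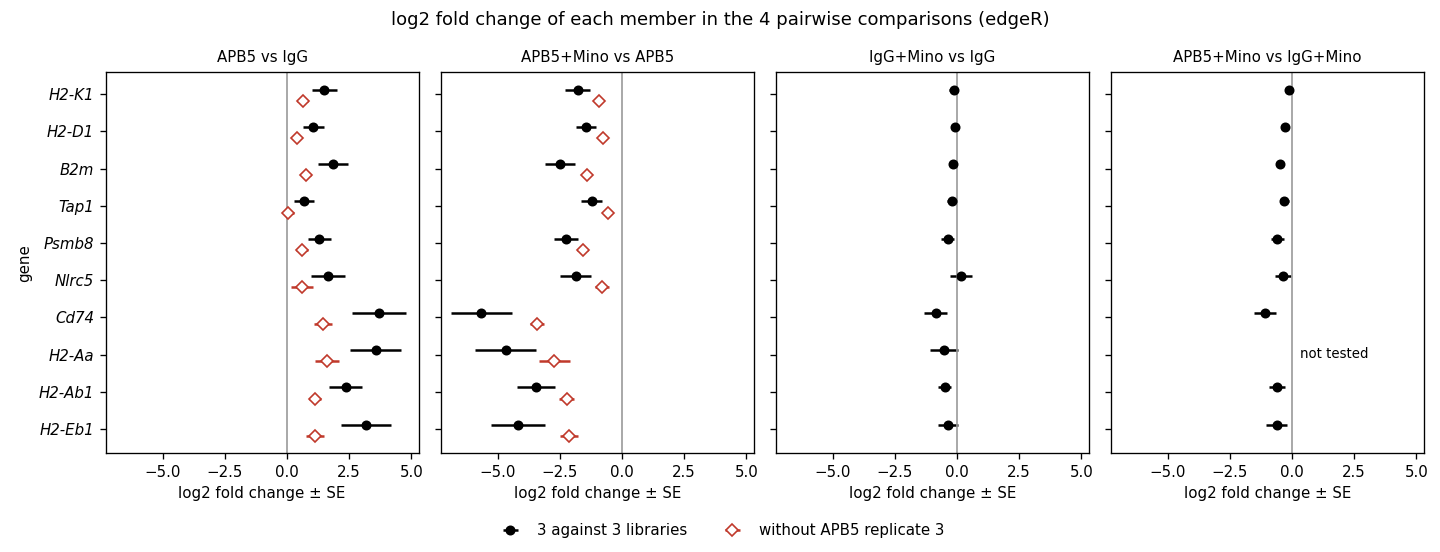
log2 fold change with SE of the 10 genes in each pairwise comparison, from edgeR on 3 against 3 libraries (filled circles) and, where APB5 takes part, without APB5 replicate 3 (open diamonds). The class II genes lie farthest from 0 in both comparisons with APB5, and leaving out that library moves every value toward 0 but none across it.

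The second comparison asked how minocycline altered the members in antibody-treated retinas, and it held the largest differences. All 10 were lower in APB5+Mino than in APB5, and for all 10 the groups did not overlap, whereas 22.8% of all genes tested were lower without overlap. The log2 fold changes ran from −1.22 (Tap1) to −5.67 (Cd74), with a median of −4.43 for class II and −1.82 for class I genes, against −0.02 over 20281 genes. Cd74 had a log2 fold change of −5.67 (SE 1.22), H2-Aa of −4.68 (SE 1.24), H2-Eb1 of −4.18 (SE 1.09) and H2-Ab1 of −3.46 (SE 0.76). B2m had −2.49 (SE 0.61), Psmb8 −2.26 (SE 0.48), Nlrc5 −1.86 (SE 0.62), H2-K1 −1.78 (SE 0.50) and H2-D1 −1.45 (SE 0.40). Several lists of cell type markers moved with them: all 14 microglial genes were below 0, 13 of them without overlap, with a median of −3.09, and so were all 6 pigment epithelium and choroid genes, 3 of them without overlap, with a median of −2.10. All 7 endothelial genes, 5 without overlap, and all 6 Müller glia and astrocyte genes, 3 without overlap, were below 0 too. Their medians were −0.88 and −0.34. Of the 12 retinal neuron genes, 6 were below and 6 above 0. Without APB5 replicate 3 the medians of the microglial, pigment epithelium, endothelial and Müller glia lists were −1.58, −0.68, −0.73 and −0.38. The part of these cells in the members' values was not tested.

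Psmb8 was the only member called, 1 of 10, with an adjusted p of 0.0493, and 0.819% of all genes were called lower. The others missed the threshold by little, with adjusted p-values of 0.0501 for Cd74, 0.0502 for H2-Ab1, 0.0547 for B2m, 0.0581 for H2-Eb1, 0.0591 for H2-Aa and 0.0642 to 0.0926 for H2-D1, H2-K1, Nlrc5 and Tap1. Unadjusted, all 10 passed both limits, as did 6.63% of all genes, and DESeq2 called the 8 for which it gave a p, all but Cd74 and H2-Eb1, beside 7.55% of all genes in either direction. In APB5+Mino, H2-Aa rested on 9, 1 and 15 reads and H2-Eb1 on 15, 8 and 17. H2-Aa passed the count filter of this comparison only through the APB5 libraries, where it was high. With the replicate number as a block, no member and none of the 20281 genes tested was called by edgeR, and the log2 fold changes of the 10 members ran from −4.82 to −1.06.

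The calls depended on which libraries entered. With APB5 replicate 1 or any APB5+Mino library left out, edgeR called no member and at most 1 gene in all. Without APB5 replicate 2 it called 8 members and 8.63% of all genes in either direction. Without APB5 replicate 3, 6 members were called, B2m, Psmb8, Cd74, H2-Aa, H2-Ab1 and H2-Eb1, against 2.6% of all genes called lower. H2-Aa passed the count filter there only through the APB5 libraries, where it was high. Cd74 then had a log2 fold change of −3.42 (SE 0.28, against 1.22 with that library) and an adjusted p of 4.55e-04, B2m of −1.40 (SE 0.14) and 8.23e-04, and H2-Ab1 of −2.23 (SE 0.29) and 0.00246. H2-K1, H2-D1 and Tap1 passed the p threshold but not that of size, at −0.91, −0.78 and −0.58, and Nlrc5 did not pass either. All 10 members remained without overlap, as did 28.3% of all genes in this direction.

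Each of these groups held 1 Xist-high and 2 Xist-low libraries, which allowed a comparison within the latter. In the 4 Xist-low libraries, replicates 1 and 2 of both groups, the same 6 members were called lower, against 1.9% of all genes. In APB5+Mino, H2-Aa then rested on 9 and 1 reads and H2-Eb1 on 15 and 8. These 2 genes passed the count filter only through the APB5 libraries, where they were high. Their log2 fold changes were −3.74 (SE 0.29) for Cd74, −3.46 (SE 0.68) for H2-Aa, −2.34 (SE 0.42) for H2-Eb1, −2.15 (SE 0.35) for H2-Ab1, −1.69 (SE 0.27) for Psmb8 and −1.49 (SE 0.15) for B2m. Adjusted p-values of these 6 ran from 0.00239 to 0.0285. Between the Xist-high libraries, of which each group had 1, the level of Cd74 was 92.1-fold lower with minocycline, that of B2m 10.1-fold and that of Tap1 3.74-fold, with no replicates.

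Minocycline without the blocking antibody was the third comparison, and here the members differed little. In IgG+Mino against IgG, 9 of 10 log2 fold changes were below 0, from −0.87 (Cd74, SE 0.46) to 0.17 (Nlrc5, SE 0.44), with a median of −0.29 against −0.01 over 20143 genes. The groups overlapped for all 10, while 7.35% of all genes were lower and 7.03% higher without overlap. None was called by edgeR or DESeq2, and 0 passed the limits without adjustment, where 0.591% of all genes were lower and 0.432% higher. Of all genes, edgeR called 0.00993% lower and 0.0199% higher. For B2m, with a log2 fold change of −0.15 (SE 0.15), and H2-D1, with −0.08 (SE 0.15), the differences were within the error. This comparison sets Xist-high against Xist-low libraries throughout, and with Xist as a covariate over 12 libraries all 10 values were above 0, from 0.50 to 2.0, with none called.

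With minocycline in both arms, the members did not exceed the control in antibody-treated retinas. All 9 that could be tested were lower in APB5+Mino than in IgG+Mino, by a median log2 fold change of −0.48 against −0.01 over 20049 genes. H2-Aa did not pass the filter on low counts. Of the 3 libraries per group, 1 of APB5+Mino and 0 of IgG+Mino were Xist-high. B2m had an adjusted p of 0.0396 with a log2 fold change of −0.48 (SE 0.11), short of the fold threshold, so 0 of 9 were called, beside 0.354% of all genes called lower and 3.28% lower at any fold. DESeq2 also called none and gave no adjusted p for H2-Eb1, and Cd74, at −1.09 (SE 0.46), was the 1 member past the limits without adjustment, as were 0.993% of all genes. H2-D1, B2m, Tap1 and Psmb8, all class I genes, were lower without overlap, as were 17.6% of all genes. The 14 microglial genes were all below 0 in this fit, with a median of −0.72, and their part in the members' values was not tested.

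Whether minocycline made a different change under APB5 than under IgG was tested as an interaction in all 12 libraries. The IgG arm of this contrast sets Xist-high against Xist-low libraries throughout, so sex and the interaction cannot be told apart. All 10 estimates were below 0, from −0.99 (Tap1, SE 0.47) to −4.78 (Cd74, SE 1.29), with a median of −2.17 against −0.03 over 21228 genes. None of the 10 was called by edgeR, with adjusted p-values from 0.159 to 0.307, beside 0.0141% of all genes called below 0. Without adjustment 9 passed the limits, beside 4.58% of all genes, and DESeq2 called Psmb8 and H2-Ab1, beside 1.86% of all genes in either direction, and gave no p for Cd74 and H2-Eb1. Without APB5 replicate 3 the median was −1.24, and edgeR called B2m at −1.27 (SE 0.21, adjusted p = 0.0372), beside 0.32% of all genes in either direction. The comparisons above share libraries, so their values are set side by side and not counted as separate evidence.

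**Figure D4:**
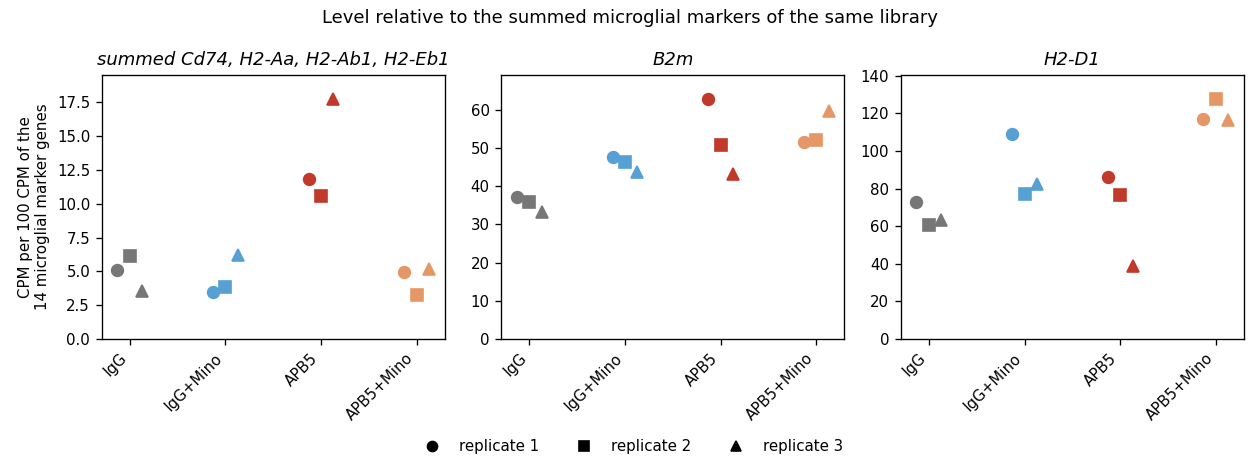
CPM of the 4 class II genes together, of B2m and of H2-D1 per 100 CPM of the 14 microglial marker genes in the same library. The class II sum is 10.6 to 17.8 in APB5 and 3.23 to 6.20 in the other 9 libraries, whereas H2-D1 is highest in APB5+Mino.

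Set against the microglial markers of the same library, the class II genes parted from the class I heavy chains H2-K1 and H2-D1. Per 100 CPM of the 14 microglial genes, the class II genes summed to 11.8, 10.6 and 17.8 CPM in APB5. They summed to 5.10, 6.15 and 3.56 in IgG, 3.51, 3.82 and 6.20 in IgG+Mino, and 4.98, 3.23 and 5.18 in APB5+Mino. The 3 APB5 libraries thus lay above the other 9, and APB5+Mino overlapped both IgG groups, with replicate 2 below their lowest library. Cd74 alone stood at 4.24 to 9.67 in APB5 and at 0.726 to 2.66 elsewhere. H2-D1 showed another order, at 117, 128 and 117 in APB5+Mino, 109, 77.0 and 82.5 in IgG+Mino, 86.3, 76.9 and 39.0 in APB5, and 72.8, 60.5 and 63.2 in IgG. The H2-K1 ratio was likewise highest in APB5+Mino, at 63.8 to 64.8, and B2m overlapped between APB5, at 43.2 to 62.8, and APB5+Mino, at 51.6 to 59.7. For B2m both groups lay above IgG, at 33.2 to 37.0, and APB5 overlapped IgG+Mino, at 43.8 to 47.7. Tap1, at 5.29 to 7.42, and Nlrc5, at 1.71 to 1.86, were higher in APB5+Mino than in APB5, and Psmb8 overlapped between them. The microglial genes did not all move alike. In APB5 replicate 3, C1qa, C1qb and C1qc stood at 118, 88.1 and 79.3 CPM. P2ry12, at 1.67 CPM, and Siglech, at 1.37 CPM, lay within their ranges elsewhere, whereas the remaining genes were highest in that library. The ratios are therefore not levels per microglial cell. They describe whole libraries, and other cells than microglia make class I.

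The pathway around the members was read from 8 lists with 70 genes. In APB5+Mino against APB5, 59 of the 70 were tested and 1 was called lower, Psmb9, beside 0.819% of all genes. Without adjustment 18 passed the limits, all lower, beside 6.63% of all genes. DESeq2 called 17, all lower, beside 7.55% of all genes in either direction. In APB5 against IgG 0 of 60 were called by either tool, and 5 were higher at the unadjusted threshold, beside 3.24% of all genes. In IgG+Mino against IgG and APB5+Mino against IgG+Mino 0 of 59 were called by either tool. At the unadjusted threshold 1 was lower in the former, beside 0.591% of all genes, and 0 in the latter, beside 0.993%. In the latter, DESeq2 gave no adjusted p for 7 of the 59.

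**Figure D5:**
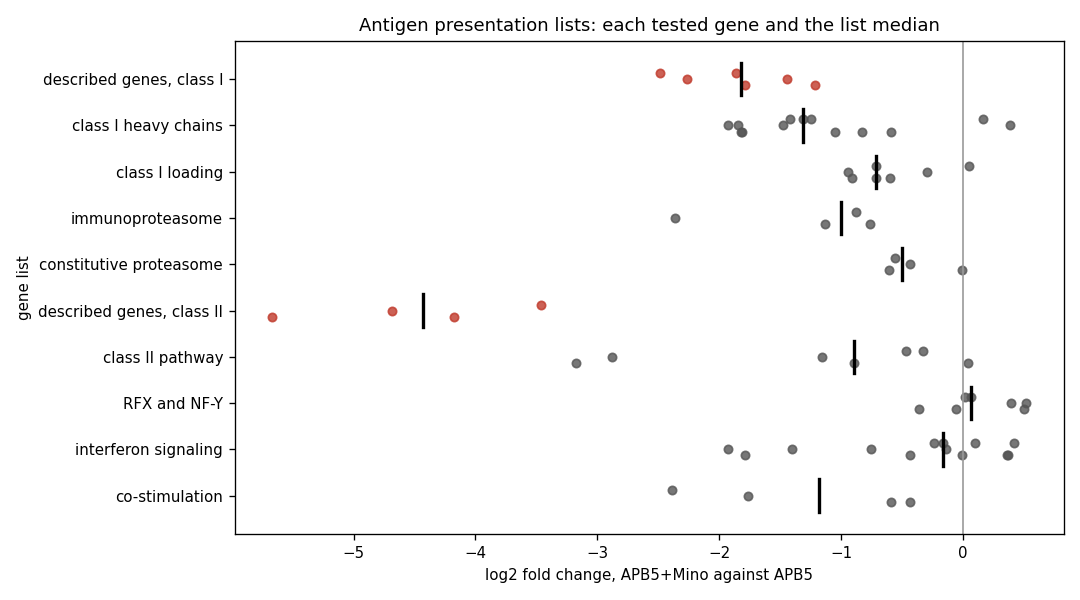
log2 fold change of every tested gene in APB5+Mino against APB5, for the described class I and class II genes (red) and for 8 lists of related genes (gray), with the median of each list as a bar. The medians run from −4.43 for the described class II genes to 0.07 for RFX and NF-Y.

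Other class I heavy chains, most of them nonclassical, had values in the direction of H2-K1 and H2-D1. In APB5+Mino against APB5, 11 of 13 tested had log2 fold changes below 0, with a median of −1.31. Of these, 9 were lower without overlap, as were 22.8% of all genes. None was called by edgeR, and DESeq2 called 8 lower, Fcgrt, H2-M3, H2-Q2, H2-Q4, H2-Q6, H2-T22, H2-T23 and H2-T24, beside 7.55% of all genes in either direction. H2-Q4 had a log2 fold change of −1.81 (SE 0.44), Fcgrt, the neonatal Fc receptor chain, −1.85 (SE 0.46), H2-Q2 −1.25 (SE 0.31) and H2-T22 −1.05 (SE 0.33), all with adjusted p-values of 0.0532 to 0.0767. Without APB5 replicate 3, 5 were called lower, Fcgrt, H2-M3, H2-Q2, H2-Q4 and H2-T23, beside 2.6% of all genes, and the median was −0.78. In APB5 against IgG 12 of 13 were above 0, with a median of 0.78, and 0.27 without that library. With all libraries 3 were higher without overlap, beside 7.79% of all genes.

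Peptide supply and loading were read from 3 lists. Of the 4 immunoproteasome genes beside Psmb8, all were lower without overlap in APB5+Mino than in APB5, as were 22.8% of all genes. Psmb9, the inducible β1i subunit, was called by edgeR at −2.36 (SE 0.47, adjusted p = 0.0476), beside 0.819% of all genes called lower. Psmb9 was measured at 1.23, 1.57 and 3.06 CPM in APB5 and at 0.555, 0.294 and 0.301 in APB5+Mino, but its gene overlaps Tap1, and with the replicate block it was not called (−2.29, adjusted p = 0.0663). Psmb10, the β2i subunit, had −1.13 (SE 0.33), Psme1 −0.87 (SE 0.26) and Psme2 −0.76 (SE 0.18). DESeq2 called Psmb9 and Psmb10, beside 7.55% of all genes in either direction. Their constitutive counterparts were also lower: Psmb5, which Psmb8 replaces, had −0.61 (SE 0.14), Psmb7 −0.56 (SE 0.14) and Psmb6 −0.44 (SE 0.13), whereas Psme3 had −0.01 (SE 0.09). Neither tool called any of these 4.

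Of 7 class I loading genes, 6 were lower without overlap in APB5+Mino than in APB5, as were 22.8% of all genes. Their median was −0.71, and none was called by either tool. Tapbp, which bridges TAP and class I, passed the p threshold at −0.71 (SE 0.11, adjusted p = 0.0450), as 2.03% of all genes did in this direction, Pdia3 had −0.91 (SE 0.21), Tap2, the partner of Tap1, −0.94 (SE 0.29) and Calr −0.71 (SE 0.19). Against IgG+Mino, Tapbp, Pdia3 and Calr passed the p threshold in APB5+Mino, at −0.45 (SE 0.08, adjusted p = 0.0182), −0.40 (SE 0.09, adjusted p = 0.0326) and −0.52 (SE 0.12, adjusted p = 0.0346), all short of the fold threshold.

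Of the 13 other genes of the class II pathway, 7 were tested in APB5+Mino against APB5 and 6 were below 0, with a median of −0.89. Without overlap 5 were lower, as were 22.8% of all genes. None was called by edgeR, and DESeq2 called Ctss, H2-DMb1 and Ifi30 lower, beside 7.55% of all genes in either direction. H2-DMb1, a subunit of the peptide exchange factor, had −3.17 (SE 0.95) and Ctss, the protease that trims the invariant chain, −2.88 (SE 0.80). Both were called without APB5 replicate 3, beside 2.6% of all genes called lower, and H2-DMb1 had at most 18 reads in APB5+Mino. Ctsl had −0.89 (SE 0.30), and Lgmn, a lysosomal protease, −0.47 (SE 0.14). Ciita, the master regulator of class II, did not pass the filter here and reached 0.374 CPM in APB5 replicate 3 against 0.0181 to 0.183 in the other libraries.

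The DNA-binding factors of the X and Y boxes did not follow the members. Of 7 RFX, NF-Y and CREB genes, 5 were above 0 in APB5+Mino against APB5, with a median of 0.07. Rfx5, which binds the X box, was higher at 0.52 (SE 0.11, adjusted p = 0.0494), short of the fold threshold, where 2.79% of all genes were higher at any fold, with 26.8, 31.4 and 26.2 CPM in APB5 and 38.5, 39.9 and 43.6 in APB5+Mino. Creb1 had 0.51 (SE 0.24), Nfya 0.39 (SE 0.25) and Rfxap, another RFX subunit, −0.36 (SE 0.12), and neither tool called any gene of this list.

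Interferon genes were mixed. Of 15 listed, 13 were tested in APB5+Mino against APB5, 4 above and 9 below 0, with a median of −0.17. None was called by edgeR, and DESeq2 called Irf1, Irf8 and Socs1 lower, beside 7.55% of all genes in either direction. Irf1 had −1.40 (SE 0.54) and Irf8, a factor of myeloid cells, −1.78 (SE 0.58). Socs1, an interferon-induced feedback inhibitor, had −1.93 (SE 0.60), whereas Stat2, Irf2 and Ifnar1 had 0.36 (SE 0.09), 0.42 (SE 0.11) and 0.37 (SE 0.10). Ifnb1 had no read in any library, and Ifng, the main inducer of class II, did not exceed 0.0543 CPM. The co-stimulation list holds genes for signals between antigen-presenting cells and T cells beside the MHC signal, and all 4 tested were below 0. The co-stimulatory Cd86, Cd40 and Icosl had −2.39 (SE 0.94), −1.77 (SE 0.66) and −0.59 (SE 0.44). Cd274, an inhibitory ligand, had −0.43 (SE 0.40), and the groups overlapped for all 4. Of these, DESeq2 called Cd86, which had at most 18 reads in APB5+Mino, beside the same share of all genes, and edgeR called none. Without APB5 replicate 3, 2 of these 4 were above 0.

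Over 12 libraries, which include APB5 replicate 3, the median Pearson correlation of log2 CPM was 0.954 among the 6 pairs of class II genes, 0.936 among 15 pairs of class I genes and 0.910 between the classes. Without that library the medians were 0.878, 0.792 and 0.721. With the group means also removed they were 0.370, 0.456 and −0.143, with 16 of the 24 pairs between the classes below 0. Of 15802 genes with a mean of at least 1 CPM, those most like the class I pattern were Bst2 (r = 0.994), an interferon-induced antiviral tether, Cebpa (0.991), Mmp14 (0.988), C1qa (0.986) and Ly6e (0.984). Bst2 averaged 2.96 CPM in IgG, 2.69 in IgG+Mino, 11.9 in APB5 and 1.62 in APB5+Mino. Those most like the class II pattern were Cfb (0.993), complement factor B, Lyn (0.976), Slc39a1 (0.975), Ppic (0.975) and Lyz2 (0.975), lysozyme of myeloid cells. Cfb averaged 0.157 CPM in IgG, 0.0791 in IgG+Mino, 4.04 in APB5 and 0.0373 in APB5+Mino, so that it passed the minimum of 1 CPM only through APB5 and its rank describes no more than that. Without APB5 replicate 3 the correlations of these 10 genes were 0.922 to 0.986, and all points share the libraries and the scaling.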

How the data were processed

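RNA was measured in 12 retinal libraries. The authors made stranded poly-A libraries, sequenced them from 1 end and used the DRAGEN RNA pipeline with mm39 and NCBI annotation, and its version and the strand setting of counting are not given in the sources used here. The values deposited by the authors are counts of reads per gene, without normalization. The table held 50559 genes and 3 repeated columns, which were not used. A second count table and the authors' comparison tables (fold changes and p-values) were not used.

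R 4.3.3 with edgeR 4.0.16 was used. Genes were filtered by filterByExpr, scaled by TMM and tested by the quasi-likelihood test within the 2 groups compared, or in all 12 libraries for the interaction, with Benjamini-Hochberg adjustment over all genes tested. The test was checked on simulated counts. All tests were two-sided, and SE is the log2 fold change divided by the root of F. CPM are TMM-scaled over 12 libraries. DESeq2 1.42.0, other scalings, filters and fits, and each library left out were alternatives. The comparison within Xist-low libraries and the counts without APB5 replicate 3 for non-overlap and lists were added after seeing the data. Members and lists were chosen with earlier results of these data known. All 10 members are named, up to 4 genes per list by smallest p in the pairwise comparisons, and 5 genes per pattern by correlation. Marker genes and other list genes named beside them, such as Ighm, Ciita, Ifng, H2-Ea, Irf1, Irf8 and those called under an alternative, were chosen after their values were seen.

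Neither the labels nor the paper say what a replicate number marks. For APB5+Mino against APB5, deviations from group means correlated by 0.158 to 0.301 in the 3 same-numbered pairs and by −0.246 to 0.0921 in the 6 others. The block is therefore given beside the result, but these correlations do not show that the numbers pair the libraries. Deviations within a group of 3 are not independent. Replicate 3 is the only Xist-high library of both groups, so in that pair the number and sex cannot be told apart. In the other comparisons at least 1 same-numbered pair was under 0.1.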

Additional observations from a re-analysis of the deposited data

How the results depend on the processing

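The number of members called moved with the fit. In APB5 against IgG, where it was 0, it was 2 with DESeq2, 9 at unadjusted p-values and 10 with Xist as a covariate, and 0 with each library left out in turn. In APB5+Mino against APB5, where it was 1, it was 0 with library sizes only and with the replicate block, 3 of 8 tested with at least 10 counts in every library, 6 with no count filter and in the Xist-low libraries, 8 with DESeq2, and 10 at unadjusted p-values, with all 12 libraries in the fit and with Xist as a covariate. The share of all genes called in either direction moved as well. It was 1.66% in the main fit, 0.0247% with library sizes only, 2.56% with at least 10 counts and 1.71% with no count filter. It was 7.55% with DESeq2, 7.74% with all 12 libraries and 9.2% with Xist as a covariate. With a library left out it ran from 0 to 8: 8 without APB5 replicate 2, 6 without APB5 replicate 3, and 0 without APB5 replicate 1 or any APB5+Mino library. In IgG+Mino against IgG it was 0 throughout. In APB5+Mino against IgG+Mino, where it was 0, it was 1 at unadjusted p-values and 1 with no fold threshold, and 0 with each library left out. In the interaction, where it was 0, it was 2 with DESeq2, 9 at unadjusted p-values and with Xist as a covariate, and 0 to 1 with a library left out. With Xist as a covariate 4.39% of all genes were called there in either direction, and with DESeq2 1.86%. Beyond APB5+Mino against APB5, the replicate block changed no call of a member. In every fit with Xist as a covariate, the slope on Xist rested mainly on replicate 3 of APB5 and APB5+Mino, so those counts carry that limit.

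Signs turned only in comparisons with IgG+Mino. With Xist as a covariate, the log2 fold changes in IgG+Mino against IgG were 0.76 for H2-K1, 0.60 for H2-D1, 1.00 for B2m, 0.51 for Tap1, 0.50 for Psmb8, 1.54 for Cd74, 2.0 for H2-Aa, 0.73 for H2-Ab1 and 1.89 for H2-Eb1, and the covariate and the groups cannot be told apart there. In the same comparison, with a library left out, H2-K1 ran from −0.26 to 0.090 and H2-D1 from −0.18 to 0.084, both above 0 without IgG replicate 3, and Nlrc5 ran from −0.22 to 0.57, at −0.15 without IgG replicate 2 and −0.22 without IgG+Mino replicate 2. In APB5+Mino against IgG+Mino, Nlrc5 ran from −0.54 to 0.021, the latter without IgG+Mino replicate 2. In APB5 against IgG, APB5+Mino against APB5 and the interaction, all 10 members kept their sign under every alternative run. Scaling by library size only moved the median of all genes to −0.11 in APB5+Mino against APB5. Depth limits H2-Aa, H2-Eb1 and Nlrc5, which rested on the fewest reads. The other causes were not tested.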
